A study of Mus musculus with 4 samples.

Results

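The regions described here are stretches of open chromatin that lay inside protein-coding genes, away from both gene ends, and that were called in every library of a comparison of 2 thymocyte fractions. They were chosen in 3 steps: the peaks of 4 lists were merged into regions wherever they overlapped by 1 bp or more, only regions with a peak from all 4 lists were retained, and the summit of the strongest peak had to lie inside a RefSeq protein-coding gene and more than 1000 bp from every protein-coding gene start or end. The rule gave 5054 regions, called gene-interior regions below, of 16761 shared regions and of 36224 merged regions on the autosomes, X and Y. The remaining shared regions were 8041 at gene ends and 3666 between genes. Being called in all 4 libraries is what chose the regions, so that property is not a result.

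Chromatin accessibility was profiled by ATAC-seq, in which a transposase cuts and tags exposed DNA, in DN3 cells from the thymus of wild-type mice. DN3 is the stage of CD4- CD8- thymocytes at which the T cell receptor beta chain gene is rearranged. The cells were sorted by flow cytometry and then split on magnetic beads with a biotin-coupled antibody to EpCAM, an epithelial adhesion molecule, so that the EpCAM-positive cells were the bead-bound fraction and the EpCAM-negative cells were the unbound remainder. There were 2 libraries per fraction, no age was given, and whether these were made from different mice is not stated, so p-values measure a spread that may be technical.

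Open chromatin outside gene ends often marks enhancers, silencers, insulator sites or alternative promoters. Enhancers inside introns can act on the gene that holds them or on a neighbour, and in T cell precursors many are bound by RUNX, ETS, TCF1, E protein and GATA3 factors. An alternative promoter inside a gene gives a shorter transcript from the same locus, and such promoters are often rich in CpG dinucleotides. Accessibility alone does not tell these kinds of element apart.

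Part of the gene-interior regions lay at transcription starts that RefSeq places inside a longer gene model. The summit was within 1000 bp of such a start in 1085 regions (21.5%), of which 948 lay nearest to a start of the host gene itself and 137 nearest to a start of a long non-coding RNA gene. Another 3828 (75.7%) had no RefSeq start that close, and 141 were not assessed because the start table used here has no entries for their chromosome. The start windows, running from 250 bases before to 50 bases after a RefSeq start (GRCm38.p6, the build of the peak coordinates), give examples of such sites. The 4 printed here were picked to span the range, from motif-dense and CpG-poor to CpG-rich with no motif match, and not as typical sites. Each is given 5′ to 3′ on the strand of its gene in lower case, and capitals mark matches to any of the motifs searched on both strands: the Runt motif TGTGGT, the ETS motif ACAGGAAG, the TCF/LEF motif CTTTGATG, the palindromic E box CAGCTG, a further E box variant spelled CAGGTG, the GATA motif AGATAAGA, the AP-1 motif TGANTCA and the core of the CTCF motif. These windows lay at chr9:112217212-112217511 (minus strand, Arpp21), chr3:103860027-103860326 (plus strand, Ptpn22), chr4:129558323-129558622 (minus strand, Lck) and chr9:20952574-20952873 (minus strand, Dnmt1).
Arpp21 internal start: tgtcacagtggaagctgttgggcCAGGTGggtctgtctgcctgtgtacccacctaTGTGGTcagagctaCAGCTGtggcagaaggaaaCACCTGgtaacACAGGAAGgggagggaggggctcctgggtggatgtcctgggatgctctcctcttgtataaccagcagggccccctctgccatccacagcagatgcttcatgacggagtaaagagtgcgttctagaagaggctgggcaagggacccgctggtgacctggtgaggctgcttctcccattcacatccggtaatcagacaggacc
Ptpn22 internal start: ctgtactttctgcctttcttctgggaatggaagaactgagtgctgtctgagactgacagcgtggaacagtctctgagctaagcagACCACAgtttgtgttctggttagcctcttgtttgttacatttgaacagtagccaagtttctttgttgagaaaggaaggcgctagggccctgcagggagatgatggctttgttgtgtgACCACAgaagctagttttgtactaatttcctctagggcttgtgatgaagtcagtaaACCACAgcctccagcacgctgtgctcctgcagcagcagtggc
Lck internal start: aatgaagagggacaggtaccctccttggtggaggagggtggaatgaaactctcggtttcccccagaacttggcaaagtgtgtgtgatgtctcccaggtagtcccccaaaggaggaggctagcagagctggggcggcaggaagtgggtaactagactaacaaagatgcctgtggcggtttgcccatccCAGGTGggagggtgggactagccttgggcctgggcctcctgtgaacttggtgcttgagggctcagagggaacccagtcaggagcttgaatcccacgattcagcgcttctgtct
Dnmt1 internal start: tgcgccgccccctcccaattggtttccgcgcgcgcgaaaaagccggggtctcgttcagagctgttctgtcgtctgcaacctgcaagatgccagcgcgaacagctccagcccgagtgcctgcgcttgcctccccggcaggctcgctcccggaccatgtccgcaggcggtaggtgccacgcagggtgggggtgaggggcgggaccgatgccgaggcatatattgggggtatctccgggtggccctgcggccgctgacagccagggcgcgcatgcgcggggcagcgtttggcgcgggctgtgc

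The Arpp21 window, in the gene of a phosphoprotein expressed in thymocytes, held 5 matches: 1 Runt, 1 ETS, 1 CAGCTG and 2 CAGGTG matches, with 4 CpG dinucleotides in 300 bases and 57.7% GC. The Ptpn22 window, in the gene of a phosphatase that restrains T cell receptor signalling, held 3 Runt matches, 3 CpG dinucleotides and 48.7% GC. The window of Lck, the kinase that starts T cell receptor signalling, held 1 CAGGTG match and 5 CpG dinucleotides at 57.3% GC. The Dnmt1 window, in the gene of the maintenance DNA methyltransferase, held none of the motifs, 33 CpG dinucleotides and 69.7% GC. The peak folds of these 4 regions, which are the authors' enrichment at the summit over local background, were for EpCAM-positive 1 and 2 and EpCAM-negative 1 and 2, in that order, 5.99, 7.98, 9.78 and 9.48 at Arpp21. They were 10.7, 14.3, 14.4 and 14.9 at Ptpn22. At Lck they were 18.6, 16.0, 19.3 and 19.2, and at Dnmt1 18.5, 18.3, 18.9 and 19.3. Lck and Dnmt1 thus had nearly equal folds with windows that differed in CpG content. In all 4 regions both EpCAM-positive folds lay below both EpCAM-negative folds, and the size of the difference varied. In percentile rank, defined below, it was −28.2 points at Arpp21, −12.0 at Ptpn22, −3.28 at Lck and −0.131 at Dnmt1. Such separation was common. By rank, both EpCAM-positive libraries lay below both EpCAM-negative ones in 1223 of 5054 gene-interior and 3475 of 16761 shared regions. The opposite order was found in 891 and 3205. The 4 windows were chosen after their values were seen, so their shared direction is no result.

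Over all internal starts the window composition was measured in the same way. Among 405 internal windows that held the summit of a gene-interior region, median GC was 64.3% and the median number of CpG dinucleotides was 25. In 2520 internal windows with no peak in any library the medians were 51.3% GC and 5 CpG dinucleotides, and in 3282 windows with the summit of a shared gene-end region they were 63.7% and 25. The internal starts with a shared summit thus had medians near those of the gene-end windows. A Runt match was present in 12.6% of the windows with a gene-interior summit, in 18.1% of the internal windows with no peak, in 10.3% of the gene-end windows and in 15.0% of all 21263 windows. The E box CAGCTG was found in 11.9%, 20.3%, 13.2% and 15.6% of these sets, and CAGGTG in 19.5%, 22.1%, 15.0% and 19.7%. ETS matches were in 4.2%, 3.61%, 2.93% and 3.23%, and TCF/LEF matches in 1.48%, 1.07%, 0.579% and 0.908%. AP-1 matches were in 3.21%, 9.25%, 3.56% and 6.99%. GATA matches were in 0.247%, 1.07%, 0.427% and 0.908% and CTCF matches in 0.741%, 0.0397%, 0.427% and 0.268%. A match is a run of letters and not a bound site, and base composition differed between the sets, so the shares are descriptions. Motifs in the 3828 regions away from starts were not analysed here because no genome sequence was used.

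The 4 lists held 24585 to 29007 peaks on the chromosomes used. The weakest peak in the lists had a −log10 q of 2.07 and 2.02 for EpCAM-positive cells and of 1.32 and 1.34 for EpCAM-negative cells. The lists thus did not reach down to the same q in the 2 fractions, and whether the calling settings differed is not stated. Total reads are not in the peak lists. The depth at each summit was recovered as the number of overlapping fragments that gives both the deposited fold and the deposited −log10 p, which was possible for at least 99.9885% of peaks in each library. The median gene-interior region had 24 fragments at its summit in EpCAM-positive 1, 25 in EpCAM-positive 2 and 21 in each EpCAM-negative library, with single regions from 4 to 281. A typical summit of 23 fragments has an exact 95% Poisson interval of 14.6 to 34.5, which covers counting error only.

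The share of merged regions that lay inside genes and away from their ends fell with the number of libraries that called a region. It was 45.5% of regions called in 1 library, 44.6% in 2, 43.0% in 3 and 30.2% in all 4. Regions at gene ends went the other way, at 15.6%, 17.6%, 22.2% and 47.97%.

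Within each library the shared regions were ranked by peak fold and expressed as a percentile, from 0 for the weakest to 100 for the strongest of the 16761. The median gene-interior region stood at percentile 35.9 in EpCAM-positive 1, 37.1 in EpCAM-positive 2, 37.9 in EpCAM-negative 1 and 39.4 in EpCAM-negative 2. Gene-end regions stood at 64.2, 63.2, 63.2 and 61.9 in the same order, and intergenic regions at 37.0, 39.3, 37.9 and 39.7. The gene-interior median was below the gene-end median by 28.3, 26.2, 25.3 and 22.5 points, a mean difference of −25.6 points (SD 2.37, n = 4 libraries). The exact two-sided sign-flip permutation test gave p = 0.13, which is the smallest value that 4 libraries allow. Against intergenic regions the differences were −1.15, −2.18, 0.0850 and −0.291 points (exact sign-flip permutation p = 0.25), so in rank the gene-interior regions differed from intergenic regions by no more than the libraries differed among themselves.

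The regions at an internal start were stronger than those away from starts in all 4 libraries. Their medians were percentile 50.5, 48.2, 48.6 and 48.8, against 33.0, 33.9, 34.998 and 37.3 for the regions away from starts. The difference was 17.6, 14.3, 13.6 and 11.5 points (mean 14.2, SD 2.50, n = 4 libraries; exact sign-flip permutation p = 0.13, the smallest possible). Internal starts still ranked below gene ends, so the gene-interior set joins 2 kinds of region of different strength. The difference between them was larger by 3.39 points for EpCAM-positive cells, with an exact permutation p of 0.33, the smallest that 2 libraries against 2 allow.

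**Figure D1:**
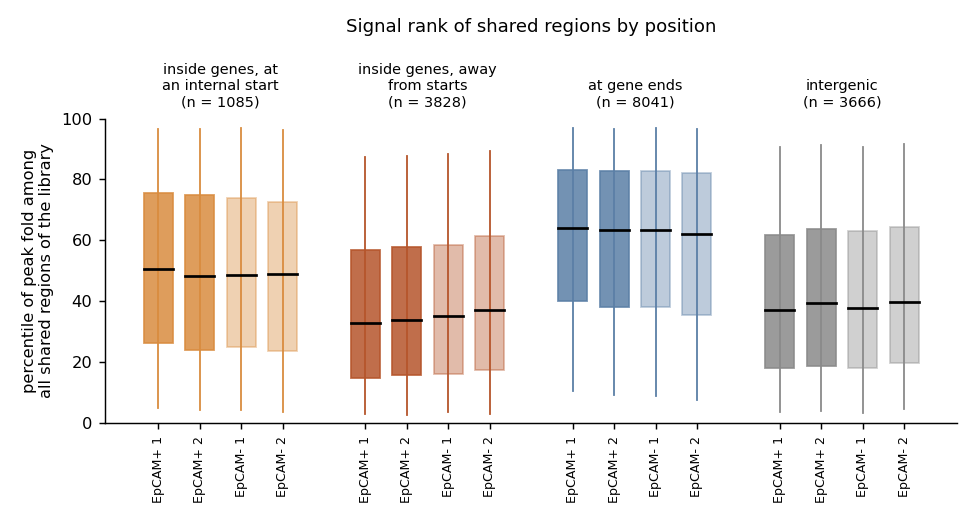
Percentile of the peak fold among the 16761 shared regions of each library (y axis) for gene-interior regions at an internal RefSeq start, gene-interior regions away from starts, gene-end regions and intergenic regions, with 1 box per library. Bars are medians, boxes the middle 50% of regions and thin lines the 5th to 95th percentile of regions; the medians at internal starts (48.2 to 50.5) lie between those away from starts (33.0 to 37.3) and those at gene ends (61.9 to 64.2) in each library.

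Between the fractions, the median rank of gene-interior regions was 36.5 ± 0.841 in EpCAM-positive cells and 38.7 ± 1.03 in EpCAM-negative cells (SD, n = 2 libraries each). Both EpCAM-positive libraries lay below both EpCAM-negative libraries, with a mean difference of −2.18 points. The exact two-sided permutation test gave p = 0.33, which is the smallest that 2 libraries against 2 can give, so this design cannot pass a usual threshold. For the regions away from starts the difference was −2.70 points (p = 0.33, exact permutation test), and for those at internal starts it was 0.686 points (p = 1.0, exact permutation test). The rank is relative to the other shared regions, whose gene-end class differed by 1.11 points the other way. The median fold itself overlapped between fractions, at 8.09 and 8.68 against 8.37 and 8.62 (exact permutation p = 1.0), and the median summit fragments were higher in EpCAM-positive cells. Summit fragments are not adjusted for depth and were also higher at gene ends, at 42 and 42 against 34 and 32. Ranked within each library by summit fragments, the gene-interior difference was −3.31 points (p = 0.33, exact permutation test). Being relative, a rank difference is no measure of absolute accessibility in either direction. In libraries made from many cells, the number of cells with a site open and the accessibility per cell cannot be told apart.

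Peaks of gene-interior regions were 525 and 510 bp wide at the median for EpCAM-positive cells and 454 and 441 bp for EpCAM-negative cells. Gene-end peaks were wider in each library, at 703, 663, 611 and 578 bp, and intergenic peaks narrower, at 488, 477, 424.5 and 418 bp. The mean difference was −156 bp from gene-end peaks and 30.6 bp from intergenic peaks (n = 4 libraries; exact sign-flip permutation p = 0.13 for each). The EpCAM-positive peaks were wider in all 3 position classes, by 70.0 bp for the gene-interior class (exact permutation p = 0.33), and the width of a called peak also moves with depth and threshold, whose part was not tested. After merging, the median region was 614 bp wide (middle 50% 498 to 763 bp, range 244 to 2180 bp). A single peak per library made up 4035 regions (79.8%). The outermost of the 4 library summits were a median of 97.5 bp apart, and in 2598 regions (51.4%) they fell within 100 bp.

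The gene-interior regions lay at a median of 13052 bp from the nearest protein-coding gene end (middle 50% 4509 to 34433.8 bp). Between 1000 and 2000 bp of an end there were 627 regions, between 2000 and 5000 bp 719, between 5000 and 10000 bp 813, between 10000 and 50000 bp 2042, between 50000 and 100000 bp 556, and beyond 100000 bp 297. The most remote was in Lsamp, the gene of a neural cell adhesion molecule, 740434 bp from an end, where the folds were 5.76, 10.5, 3.88 and 7.95 in EpCAM-positive 1 and 2 and EpCAM-negative 1 and 2. Just inside the limit of the rule were regions in Fam98c at 1003 bp and in Fh1 and Ctps2 at 1007 bp, with folds of 7.37 to 10.7, 9.37 to 11.2 and 13.3 to 15.1 over the libraries. Just outside it were regions in Slc19a1 at 1000 bp, Eif4a2 at 999 bp and Zcchc2 at 994 bp, with folds of 9.43 to 14.2, 8.64 to 11.5 and 3.42 to 5.08. In all, 4995 of the regions lay in 1 protein-coding gene and 59 in 2 or more. The annotation used here gives gene spans and not exons, so intron and exon were not distinguished.

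Strand was known for 4104 pairs of a region and its gene, in 2659 genes. Of these, 2499 (60.9%) lay between the gene's start and its midpoint, where 50.0% of the interior bases lie. The 10% of the span next to the gene start held 617 (15.0%), with 9.18% of the interior bases, and the last 10% held 261 (6.36%), with 9.17% of the bases. Most of this skew came with internal starts: 863 of 1071 pairs at an internal start (80.6%) lay before the midpoint, against 1636 of 3033 pairs away from starts (53.9%). Away from internal starts the first 10% of the span held 8.64% of the regions, and each further 10% up to the midpoint held 11.1% to 11.5%. The shares of bases count all interior bases. They include those near internal starts, where no region of this set can lie, so they are no like comparison for it.

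**Figure D2:**
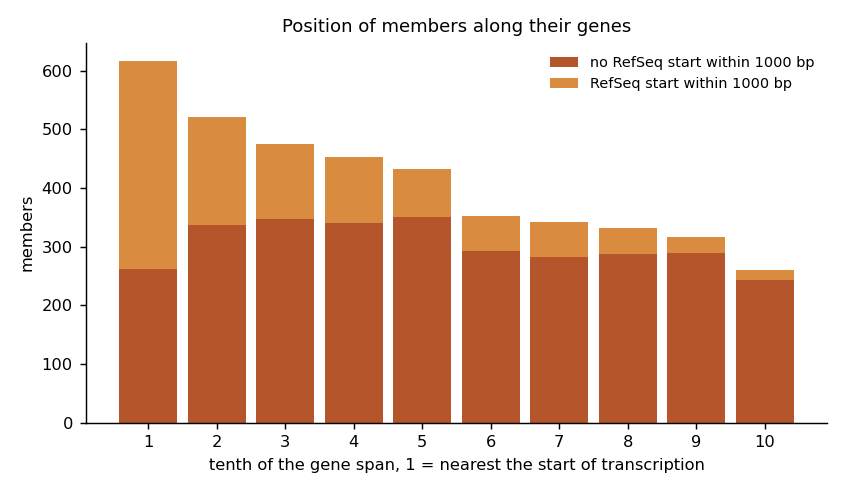
Number of gene-interior regions (y axis) in each of 10 equal parts of the gene span (x axis, part 1 next to the start of transcription), split by whether a RefSeq start lies within 1000 bp. The total drops from 617 in part 1 to 261 in part 10, and the regions at internal starts drop from 355 to 18.

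At least 1 gene-interior region was found in 3309 of 19256 protein-coding genes with an interior (17.2%), or 0.510 regions per 100 kb of gene interior. Long genes have more room: the median interior was 19.3 kb over all genes and 50.9 kb over the genes with a region. Of genes that also had a shared region at an end, 1432 of 8740 (16.4%) held a gene-interior region, at 0.592 per 100 kb, against 1877 of 10516 (17.8%) and 0.458 per 100 kb of genes with none at an end. A single region was found in 2297 genes, 2 in 616 and 3 in 198. Among the 2820 region and gene pairs in genes with at least 2, the nearest neighbour in the same gene was a median of 13336.5 bp away, and 1111 (39.4%) had one within 10 kb.

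The phosphodiesterase gene Pde4d, a very long gene, held the most regions, 12 over an interior of 1300 kb or 0.923 per 100 kb. Gse1, the gene of a chromatin co-regulator subunit, and Maml3, which encodes a coactivator of Notch transcription complexes, held 11 each, at 3.14 and 2.64 per 100 kb. Wwox held 10, and Septin9, Tmem108, Mgat5 and Snx29 held 9 each. Jakmip1, Ppm1h, Itga9, Akap13, Ldlrad4, Nfia and Foxp1 held 8 each. Foxp1 encodes a forkhead factor needed for T cell quiescence, and Mgat5 a glycosyltransferase that acts on T cell receptor glycans. Ranked by density among genes with 4 or more regions, a different set led. Kdm6b, the gene of an H3K27 demethylase, had 5 regions in 19.9 kb (25.2 per 100 kb), and Csk, the kinase that holds Lck inactive, had 5 in 24.98 kb (20.01 per 100 kb). Fbxl18 followed with 17.4 per 100 kb, Fam78a with 13.3, Klf13 with 10.7, Ralgds with 10.5, Sh3tc1 with 9.80, Stn1 with 9.34, Cerk with 8.86 and Pde4a with 8.78. By chromosome the density ran from 1.84 regions per Mb of gene interior on X to 8.28 on chromosome 11, with none on Y.

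**Figure D3:**
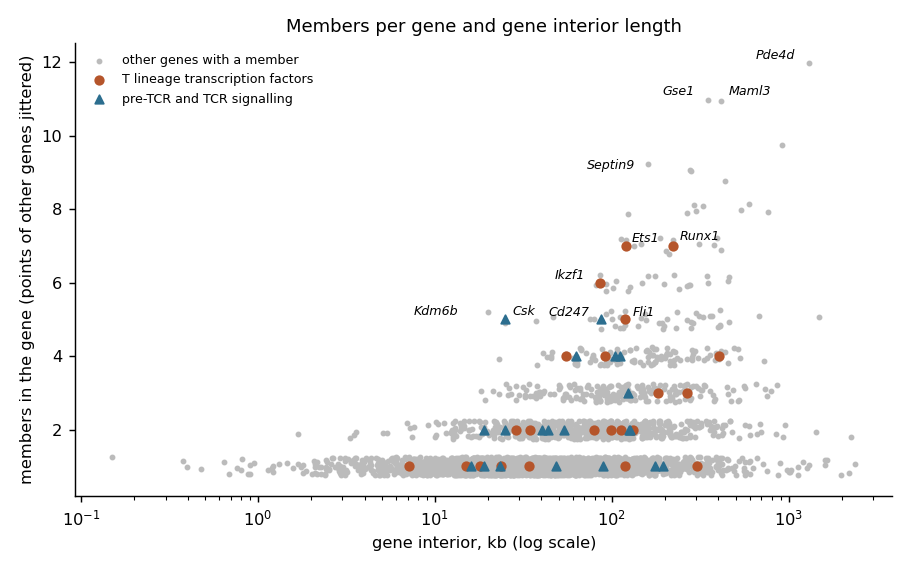
Number of gene-interior regions in each gene (y axis) against the length of the gene interior in kb (x axis, log scale), for genes with at least 1; points of other genes are jittered vertically. Pde4d, Gse1 and Maml3 hold 11 or 12, while Kdm6b and Csk hold 5 in 19.9 and 24.98 kb.

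Most genes of a list of T lineage transcription factors held gene-interior regions. Of its 30 genes, 22 (73.3%) held 62 regions, or 2.14 per 100 kb, beside 17.2% and 0.510 over all genes with an interior. The list's genes were also longer, with a median interior of 82.7 kb against 19.3 kb, which the density takes into account and the share does not. Ets1 and Runx1 held 7 regions each, Ikzf1 held 6, Fli1 5, and Bcl11b, Hivep3 and Runx3 4 each. No region was found inside Cbfb, Ets2, Ikzf2, Satb1, Tcf3, Zbtb7b, Zfp36l1 or Zfp36l2. The list was drawn up with earlier results of these data known, and its density is a description. A list of chromatin regulator genes expressed in most cells, with a median interior of 79.5 kb, had 13 of 25 genes with a region (52.0%) and 1.49 per 100 kb.

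These T lineage regions ranked low as a group. Their median rank, averaged over the 4 libraries, was percentile 23.0, beside 36.4 over all gene-interior regions. A low median was not particular to this list. It was 17.5 for double-positive and CD4 or CD8 genes, 23.6 for gamma-delta markers and 23.8 for adhesion and migration genes. The remaining lists ran from 32.3 to 81.2. Of the 62 T lineage regions 8 lay at an internal start, where ranks were higher, beside 21.5% of all gene-interior regions. At Bcl11b, whose zinc finger product commits cells to the T lineage, the 4 regions had folds from 4.68 to 12.1 over regions and libraries. The strongest of them (chr12:107927940-107928701, mm10) had folds of 8.74 and 11.2 in EpCAM-positive cells and 12.1 and 10.7 in EpCAM-negative cells, and the 2 groups overlapped. Both regions of Gata3, the gene of a zinc finger factor needed at several T cell stages, lay near an internal start, with folds of 3.56 to 7.44. In Tcf7, which encodes TCF1, a region 17451 bp from the gene's nearer end had folds of 6.30 and 5.42 against 7.94 and 7.03. A region 7742 bp from the nearer end had folds of 9.36 and 9.54 against 10.0 and 10.8. In both, the 2 EpCAM-positive values lay below the 2 EpCAM-negative values, a kind of separation common among shared regions, as given above. The differences, −17.2 and −8.55 points, were under the 20 points used as a limit below. The strongest T lineage regions were in Hivep3 (folds 18.9, 17.2, 15.7 and 17.8, mean percentile 92.7), in Ikzf1 41239 bp from its start (13.9, 15.9, 14.8 and 18.7, mean percentile 87.9) and in Gfi1 (15.0, 13.9, 15.7 and 17.5, mean percentile 87.0). Ikzf1 encodes Ikaros and Gfi1 a transcriptional repressor of lymphoid progenitors.

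**Figure D4:**
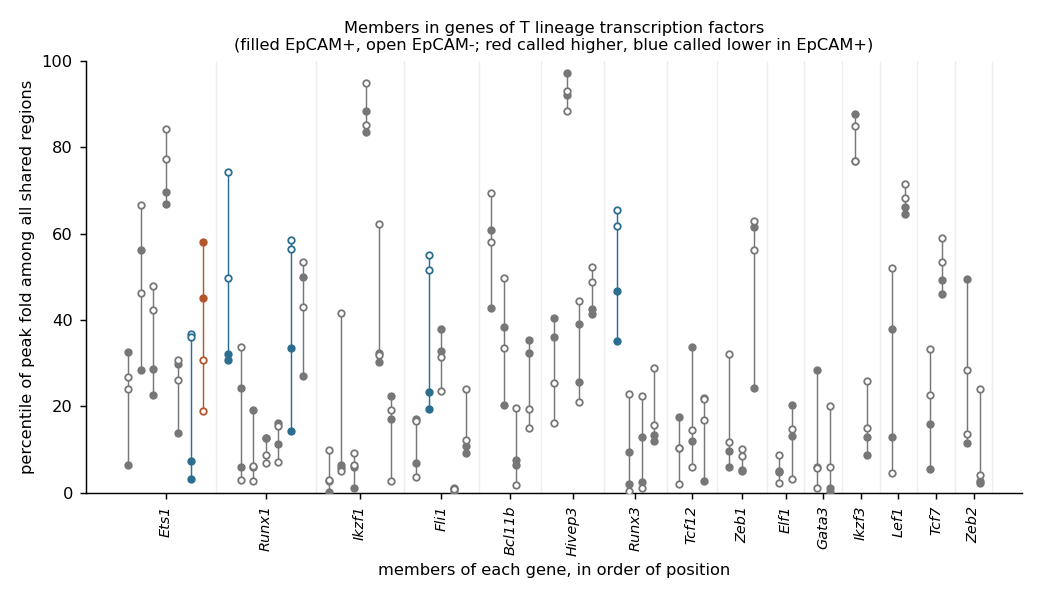
Percentile of the peak fold among all shared regions (y axis) for gene-interior regions in the T lineage transcription factor genes that hold 2 or more, grouped by gene and ordered by position (x axis); each vertical line is 1 region, with filled points for the 2 EpCAM-positive and open points for the 2 EpCAM-negative libraries. Blue marks 5 regions called lower in EpCAM-positive cells (2 in Runx1, 1 each in Ets1, Fli1 and Runx3) and red the 1 called higher, in Ets1.

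Genes of pre-TCR and TCR signalling held 46 regions in 20 of 34 genes (58.8%), or 2.27 per 100 kb. Csk and Cd247, which encodes the CD3 zeta chain, held 5 each, and Nfatc1 and Ptprc 4 each. The Lck region shown above stood at a mean percentile of 94.3. No region was found inside Ptcra, the gene of the pre-TCR alpha chain, nor in Cd3d, Cd3e or Cd3g, nor in 10 other genes of the list.

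In the Notch pathway list 10 of 21 genes held a region (47.6%), with 28 regions and 1.57 per 100 kb. The coactivator genes Maml3 and Maml2 held 11 and 5 of the 28. Notch1, the receptor that drives T cell commitment, had 2. The one 2999 bp from the gene's nearer end had folds of 8.95 and 6.51 in EpCAM-positive and 6.03 and 7.54 in EpCAM-negative cells, and the fractions overlapped. The other had folds of 11.1 and 11.4 against 11.6 and 13.7, which did not overlap, with a difference of −8.40 points. Separation without a limit on its size was common among shared regions, as given above. Rbpj, the DNA-binding partner of Notch, had 2 adjacent regions, 1 of them 3 bp from an internal start. Il2ra, a DN3 marker that encodes CD25, had 1 region 10755 bp from its start, with folds of 4.89, 7.18, 6.57 and 6.96, so that the fractions overlapped. Kit, a marker of earlier stages, and Epcam, whose product defined the fractions, held none.

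Of V(D)J recombination and end-joining genes, 6 of 16 (37.5%) held 7 regions, at 0.675 per 100 kb. Few as they were, they ranked high, at a median mean percentile of 81.2. Dntt, which encodes terminal deoxynucleotidyl transferase, had 2, and the stronger, 9840 bp from its start, had folds of 16.9, 17.5, 18.7 and 15.2. Regions in Polm, Trp53bp1 and Lig4 lay within 368 bp of an internal start. No region was found inside Rag1 or Rag2.

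Cell cycle and survival genes had 25 regions in 14 of 23 genes (2.56 per 100 kb), led by Ccnd3 with 6, a D-type cyclin used at beta selection, and Bcl2l1 with 4. The Bcl2l1 region 127 bp from an internal start had folds of 19.0, 18.1, 19.9 and 19.5. Adhesion and migration genes had 16 regions in 11 of 21 genes (2.59 per 100 kb), with 3 in Cd44. Double-positive and CD4 or CD8 genes had 17 in 7 of 15. They included 2 in Cd4, 2166 and 2765 bp from its nearer end, whose folds of 4.43 to 7.74 overlapped between fractions. Cytokine receptor and STAT5 genes had 15 in 8 of 19. Genes carried over from the progenitor programme had 18 in 6 of 20, at 1.47 per 100 kb, with 6 in Erg and 4 in Mef2c. Flt3, a receptor kinase gene of early progenitors, held a strong region 10561 bp from its nearer end. Its folds were 16.5 and 17.5 in EpCAM-positive and 21.6 and 19.7 in EpCAM-negative cells. The fractions did not overlap, which was common among shared regions, and the difference in mean percentile was −4.37 points.

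Marker genes of other lineages were counted in the same way, beside 17.2% of genes and 0.510 regions per 100 kb over all genes with an interior. Regions were found in 3 of 13 myeloid and dendritic genes (23.1%, 0.402 per 100 kb), in 2 of 11 natural killer and innate lymphoid genes (18.2%, 0.495) and in 2 of 12 thymic epithelial genes (16.7%, 0.506), which is near the level of all genes. Of the B cell markers 1 of 10 held a region (10.0%, 0.141 per 100 kb), and Ebf1 held none in an interior of 388.0 kb. The genes with a region were Irf8, Zbtb46 and Tcf4, then Nfil3 and Rora, then Foxn1 and Prss16, and Pax5. They include factors that define these lineages. Gamma-delta T cell markers had 9 regions in 6 of 8 genes (2.42 per 100 kb), among them Sox13, Blk, Etv5, Cd163l1 and Zbtb16. Of erythroid and megakaryocyte markers 3 of 8 (37.5%) held 4 regions, at 3.19 per 100 kb the highest density of the 16 lists, and the one in Klf1, 1350 bp from its start, had folds of 20.9, 22.2, 19.1 and 19.4. These counts leave out regions at gene ends, so they do not describe the whole locus.

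The strongest gene-interior regions were picked for their mean percentile over the 4 libraries, so a high rank in each is fixed by the choice. In Rpp40, a ribonuclease P subunit gene, the folds were 26.6, 28.4, 28.9 and 28.7, and in Gphn, the gene of the scaffold protein gephyrin, they were 28.0, 30.0, 25.8 and 27.8. The next by mean percentile included regions in Efcab12, Smg9, Gm33989, Snx15, Hint3, Lipe, Egf, Sgf29, Npas4, Cntrl, Micu2 and Map4, with folds between 19.8 and 28.5 over regions and libraries. Of the 15 strongest, 10 had a RefSeq start within 204 bp of the summit. Gphn was not one of them: its region, 302 bp wide at chr12:78350857-78351158, lay 133691 bp from the gene's start.

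Ranks of the same region were compared between fractions as a description, because peak folds belong to separately called lists and 2 libraries against 2 allow no single-region p below 0.33. A region was called shifted where both libraries of 1 fraction ranked above both of the other and the mean percentiles differed by at least 20 points. Among gene-interior regions 306 (6.05%) were called higher and 452 (8.94%) lower in EpCAM-positive cells, beside a background of 6.15% in each direction over all 16761 shared regions. The other 4296 did not meet both conditions. Away from starts the shares were 6.53% higher and 10.3% lower, and at internal starts 4.52% and 4.24%. Gene-end regions had 5.55% and 3.18%, and intergenic regions 7.58% and 8.78%. The balance toward lower calls depended on the set used for ranking: with ranks taken among gene-interior regions alone, 435 were higher and 454 lower, so that 51.1% of calls were lower in place of 59.6%.

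**Figure D5:**
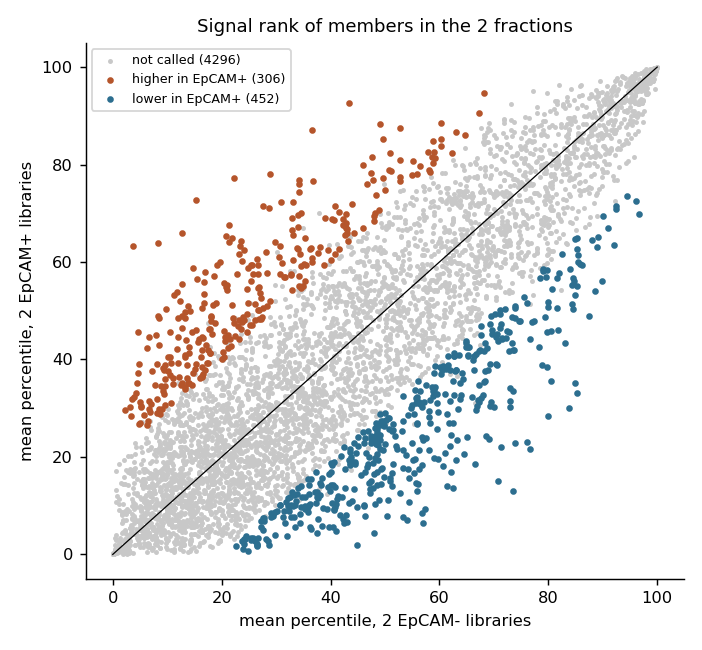
Mean percentile of each of the 5054 gene-interior regions in the 2 EpCAM-negative libraries (x axis) and the 2 EpCAM-positive libraries (y axis), with the line of equal rank. The 306 regions called higher and the 452 called lower in EpCAM-positive cells are coloured; calls are absent at both ends of the diagonal, where 20 points of difference cannot arise.

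The region with the largest difference toward EpCAM-positive cells lay in Stx6, a syntaxin gene of the trans-Golgi, at chr1:155173451-155173806. Its folds were 9.13 and 14.0 in EpCAM-positive and 4.99 and 5.16 in EpCAM-negative cells, from 18 and 28 against 6 and 7 summit fragments, and the difference was 59.6 percentile points. Nlrc5, the transactivator of MHC class I genes, followed with folds of 16.1 and 10.3 against 5.85 and 6.81, a difference of 57.3 points. The next 8 were in Arhgap32, Dock1, Tmem67, Stox2, Spg21, Phf21a, Sh3tc1 and Cotl1, with differences of 44.6 to 55.4 points. In Spg21, the gene of a protein that binds CD4, the region was 102 bp from an internal start and had folds of 16.5 and 17.3 against 9.72 and 8.27.

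Toward EpCAM-negative cells the largest difference was in Dbx1, a homeobox gene of the neural tube, with folds of 7.03 and 4.77 in EpCAM-positive and 11.5 and 14.5 in EpCAM-negative cells, or −60.6 points. In Slc8a1, the gene of a sodium-calcium exchanger, folds were 6.14 and 6.62 against 12.7 and 12.1, or −55.7 points. The next 8 were in Mdga1, Hunk, Kif23, Asap2, Sppl3, Sptbn1, G3bp2 and Dgkh, with differences of −54.9 to −49.7 points. In G3bp2 the folds were 5.37 and 5.47 against 10.4 and 10.7. Summit fragments were 26 and 24 against 30 and 30, beside gene-interior medians of 24 and 25 against 21 and 21. Ranked by summit fragments, the difference there was −19.7 points. The difference in fold at G3bp2 thus came with differences in summit fragments and in the local background used by the authors' caller. None of these 20 regions overlapped between fractions, which the choice of regions fixes.

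At least 1 shifted region was found in 700 of the 3309 genes with a gene-interior region. This stands beside 6.05% of gene-interior regions called higher and 8.94% called lower, and 6.15% each way over all shared regions. Of the 1012 genes with at least 2 regions, 59 had 2 or more shifted, while the 2297 genes with a single region could not. Of these 59, 7 had shifts all toward EpCAM-positive cells, 20 all toward EpCAM-negative cells and 32 in both directions. Lower calls were the more frequent among gene-interior regions as a whole. How many such genes the shares of calls alone would give was not tested. Itpr2, which encodes an inositol trisphosphate receptor that releases calcium, was the 1 gene with 3, all lower, with differences of −26.5, −39.7 and −25.9 points; it is named here because of these values.

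In the T lineage list 5 of 62 regions were lower and 1 was higher, beside 8.94% lower and 6.05% higher over all gene-interior regions. Runx1, a core factor of T cell development, had 2 of the lower regions. The one 24294 bp from its start had folds of 6.15 and 8.35 in EpCAM-positive and 10.6 and 10.5 in EpCAM-negative cells (−33.5 points), and the one 184851 bp from its start 7.64 and 8.18 against 9.59 and 12.96 (−30.5 points). Ets1 had 1 of each kind, at neighbouring sites: folds of 4.81 and 5.66 against 8.28 and 8.28 (−31.2 points) at chr9:32745850-32746437, and of 8.95 and 10.9 against 7.72 and 6.70 (26.7 points) at chr9:32747487-32748069. The others were in Fli1 (−32.0 points) and Runx3 (−22.6 points). In Ets1, neighbouring regions were thus shifted in opposite directions.

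In the signalling list 4 of 46 regions were lower and 2 higher. Zap70, the kinase recruited to the phosphorylated receptor, had 1 region, with folds of 8.86 and 10.7 in EpCAM-positive and 7.03 and 5.75 in EpCAM-negative cells (34.2 points). Csk had 1 higher (26.7 points) and 2 lower (−24.2 and −20.6 points) among its 5. Nfatc2 had 1 lower (−31.8 points). In the cytokine list 4 of 15 were lower, among them regions in Jak1 (−35.7 points), Stat3 (−27.9 points) and Stat4 (−26.1 points), and 1 was higher, in Stat5b (22.7 points). Jak1 encodes a receptor-bound kinase, and Stat3, Stat4 and Stat5b encode transcription factors of cytokine signalling.

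Among progenitor legacy genes 3 of 18 were lower and none higher, in Mef2c, Etv6 and Erg. The Mef2c region had folds of 9.68 and 7.56 in EpCAM-positive and 14.1 and 13.3 in EpCAM-negative cells (−40.0 points), and the others differed by −22.6 and −20.6 points. In the double-positive list 3 of 17 were lower, 2 of them in Arpp21, including the motif-dense internal start printed above (−28.2 points), and 1 in Runx3. Among cell cycle and survival genes Ccnd2 had 1 higher (27.7 points) and Ccnd3 1 of each kind (−32.1 and 20.2 points). Itgae, which encodes the CD103 integrin chain, had 1 higher (24.6 points) and Cd53, a tetraspanin gene, 1 lower (−32.8 points). Sox13, a gamma-delta T cell factor gene, had a higher region with folds of 11.9 and 8.47 against 5.69 and 6.19 (42.0 points), while Zbtb16, which encodes PLZF, had a lower one (−36.1 points). In Pax5, the B cell commitment factor gene, the single region was higher (26.4 points). The V(D)J and chromatin regulator lists had no shifted region among 7 and 34, and the Notch list had 1 among 28, in Notch2 (24.8 points). Over all shared regions 6.15% were called in each direction, and over gene-interior regions 6.05% were called higher and 8.94% lower. Beside these shares, counts of this size in lists of 7 to 62 regions describe the members named and nothing particular to a list.

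Over all 5054 regions the libraries ranked the regions alike. Spearman's rho of the percentiles was 0.806 within the EpCAM-positive and 0.793 within the EpCAM-negative fraction, and 0.716 to 0.758 between fractions (n = 5054 regions, which share libraries, depth and peak caller). The median absolute difference of a region's percentile was 9.36 and 9.64 points within fractions and 10.6 to 12.0 points between them.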

How the data were processed

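ATAC-seq was done on EpCAM-positive and EpCAM-negative DN3 thymocytes of wild-type mice, with 2 libraries each and 1 deposited peak list per library. Per the submitters' processing notes, the build was mm10 (GRCm38), and the tools included MACS3 (a peak caller), Bowtie2 (an aligner), Trimmomatic and Trim Galore (trimmers), FastQC, Picard, SAMtools, deepTools and bedtools; their versions and settings are not stated there. In the peak lists, the authors deposited a fold enrichment at each summit, a ratio to local background in that library. The authors also deposited the −log10 p and −log10 q of each peak, a display score and the offset of the summit. Fold, p, q and score are the authors' own values per peak; folds were used to rank peaks within a list and to describe them, and the score was not used.

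Peaks on the autosomes, X and Y were merged, which left out 13 to 23 peaks per list. Regions were placed on RefSeq gene spans (GRCm38.p6). Summit fragments were solved from fold and −log10 p to within 0.01 of the latter. Ranks, counts and exact permutation tests over libraries used Python 3.11.15 with numpy 2.4.6, pandas 2.3.3 and scipy 1.17.1. The shift calls were tested on counts simulated at the shared regions, ranked as counts and not as folds. The placing was tested on a small made-up annotation, and the merging was not tested. Internal starts and motif matches came from a RefSeq table of start windows that covers 17492 of 21887 protein-coding genes and no gene of chromosome 18; this search was added after the files were seen, since the planned 300 bp search around summits needed a genome sequence and was not run. Alternatives covered the distance to gene ends, the peak threshold, list length, overlap, the value ranked, the ranking set, the shift size, the pairing and each library left out.

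The regions and gene lists were chosen with earlier results of these data known. Regions named are those in genes of the DN stages, in the 15 genes with the most and the 10 with the highest density of regions, the 15 strongest, the 10 most shifted each way, those nearest the 1000 bp limit, and, in each of 16 gene lists, the 4 genes with the most regions and those with a shifted region. Lsamp, Itpr2, genes named for holding no region, regions quoted as the strongest of a list and the 4 printed sequences were chosen after their values were seen. Some regions that this rule names are not reported here.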

Additional observations from a re-analysis of the deposited data

How the results depend on the processing

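The number of gene-interior regions, the number of genes that held one, their rank difference between fractions, their difference from gene-end regions and their width stayed within 1.5 times, or on the same side, under each alternative run. With 1 library left out in turn, there were 5297 to 5587 regions in 3417 to 3588 genes, the rank difference was −2.29 to −1.32 points, the difference from gene-end regions −26.9 to −25.9 points, and the width 550 to 586 bp. The counts of shifted regions were less stable. Ranked by summit fragments, 134 were higher and 294 lower in EpCAM-positive cells. A limit of 10 points gave 656 and 915, and a limit of 30 points 102 and 156. Without 1 library the calls were 468 to 518 higher and 586 to 746 lower, the most, 746, without EpCAM-negative replicate 1; 1 library then stands alone for its fraction. For the 20 regions with the largest shifts, 19 alternatives gave 372 values, of which 371 kept their call, and the exception was G3bp2, at −19.7 points when ranked by summit fragments. These regions were picked for differences of 44.6 points or more either way. Settings that changed only the membership, the pairing or the limit left their values as they were. Many of the calls thus could not change, and the count of kept calls is no test of stability. In 8 further cases the region was no longer in the set and had no value. Stx6 and Dbx1 dropped out with peaks of −log10 q of at least 5, and Dbx1 also with lists of equal length and with gene ends taken to 5000 bp. Tmem67 dropped out at 2000 and 5000 bp, Phf21a with the ends of all annotated genes, and Spg21 when regions at internal starts were left out. Depth limits single regions, at a median of 21 to 25 summit fragments per library.

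The replicate block, with differences taken within same-numbered libraries, gave 333 higher and 466 lower. The numbers are not known to mark a shared source: the deviations of the pair numbered 1 from their fraction means correlated at 0.110, and with 2 pairs this does not establish pairing.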

Other observations

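A non-coding gene lay close to some of the gene-interior regions. The summit was within 1000 bp of a long non-coding RNA gene in 476 regions (9.42%), of a microRNA hairpin in 20 (0.396%) and of a small nucleolar RNA gene in 2. In 10 of the 20 the hairpin overlapped the region itself. The hairpin of Mir1955 overlapped the Phf21a region that was among the 10 most shifted toward EpCAM-positive cells, with folds of 11.5 and 15.6 in EpCAM-positive and 7.15 and 7.96 in EpCAM-negative cells. The hairpin of Mir7228 lay 7 bp from a summit in Syna, with folds of 8.97 and 8.00 against 3.96 and 6.28. Mir5620, in the chloride transporter gene Clcn4, had a strong region without separation of that size, with folds of 18.0, 19.4, 20.3 and 20.7. At the Lck region the hairpin of Mir8119 lay 764 bp from the summit and outside the region. These are positions only, since the peak lists hold no measure of transcription.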
